A study of Arabidopsis thaliana with 8 samples.

Results

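The genes described here were at least 2-fold more abundant in 90%-late than in early siliques when unamplified RNA was labelled, but showed under 1.5-fold of that difference after both 1 round (IVT) and 2 rounds (2xIVT) of in vitro transcription. They were chosen by mean log2 ratio, of at least 1 (2-fold) in the unamplified regime and under 1.5-fold in IVT and in 2xIVT, among probes with a gene symbol and a value on both hybridizations of each of these regimes. Log2 ratios are given as 90%-late over early, the reverse of the deposited direction, so a positive value is higher in 90%-late. Of 26912 probes in the table, 11889 had a symbol and all 6 values, and 55 were members, each from its own locus. The values of the unamplified, IVT and 2xIVT regimes therefore chose the genes and are given as a description with no test. The PCR regime was not used in the choice, and its ratios were tested.

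Whole siliques of Arabidopsis thaliana, the pods that hold the developing seeds, were harvested as an early sample at 2 to 5 days after pollination (DAP) and as a late sample at 6 to 10 DAP, and the 90%-late sample contained 10% of early material. The strain was not given in the sources used here. The regimes were IVT from 5 µg of total RNA, 2xIVT from 50 ng, PCR from 50 ng with 20 cycles, and conventional labelling of 30 µg of unamplified RNA. Each regime had 2 hybridizations, on long oligonucleotide arrays with early target in Cy5 and 90%-late target in Cy3. All 8 hybridizations drew on 1 RNA sample of each stage, and both hybridizations of an amplified regime shared 1 amplification of the 90%-late sample against independent amplifications of the early sample. The SDs and p-values thus measure the spread between duplicate targets, not between plants. Stage and dye cannot be told apart, and neither can regime and slide order, since the slides of a regime were consecutively numbered. An exact two-sided permutation test of 2 against 2 hybridizations cannot go below p = 0.333, and no regimes were compared by a test. The tests, of the PCR mean against 0, came from limma across all probes.

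During the period sampled, the embryo leaves its early patterning stages and begins to fill with oil and storage protein, the endosperm cellularises and is consumed, the seed coat differentiates, and the pod wall finishes its growth. A pod is a mixture of these tissues, and in such bulk RNA more cells of a type and more transcript per cell cannot be told apart. In vitro transcription copies cDNA into antisense RNA from a T7 promoter joined to the oligo(dT) primer, and a second round starts from random primers on that antisense RNA. In the PCR method cDNA is tagged at both ends and copied as double-stranded DNA, so the labelled molecule, its strand and its likely ends differ between the regimes.

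Each hybridization gave 22733 to 24403 values with a median log2 ratio of -0.08 to -0.01. The seed oil body protein gene OLEO3, a marker of maturing seed, had a mean ratio of 3.43 in IVT, 1.23 in 2xIVT, 1.33 in PCR and 6.11 in unamplified targets. The pod wall marker ALC had mean ratios of -0.18 in IVT, -0.34 in 2xIVT, -0.92 in PCR, where it was called lower, and -0.44 in unamplified targets. The early endosperm marker PHE1 ranged from -0.59 to 0.02 over the regimes, and the 3 pollen probes from -0.40 to 0.55.

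Loss of the late ratio in both IVT regimes was the less common outcome. Of 782 annotated late probes, 31 lacked values in IVT or 2xIVT. Of the other 751, the 55 members made up 7.32%, whereas 453 kept a ratio of 2-fold or more in both IVT and 2xIVT and 243 fell between. Under 1.5-fold were 80 of the 751 in IVT and 135 in 2xIVT, and 25 of the 80 had 1.5-fold or more in 2xIVT. A further 40 late probes without a symbol met the same thresholds and are not named.

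Most members were modest late genes in unamplified RNA. Over the 55, the median log2 ratio was 0.36 in IVT (lowest -0.81, highest 0.58), 0.17 in 2xIVT (-0.98 to 0.56) and 1.19 in unamplified targets (1.001 to 3.66). The median SD between the 2 hybridizations was 0.11, 0.12 and 0.18 in the same order. In 45 members the unamplified mean was under 1.5, and in 4 it was 2 or more. In every member the lowest unamplified value was above the highest of the 4 IVT and 2xIVT values, as in 17.3% of the 21649 probes with all 6 values, but this contrast was used to choose the members. The mean was below 0, towards early siliques, for 10 members in IVT, 17 in 2xIVT and 7 in both. Across members the IVT and 2xIVT means moved together (Pearson's r = 0.61, Spearman's rho = 0.60, 55 probes on the same RNA). The rule had capped both means under 1.5-fold, and no value over other probes is set beside this description.

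**Figure D1:**
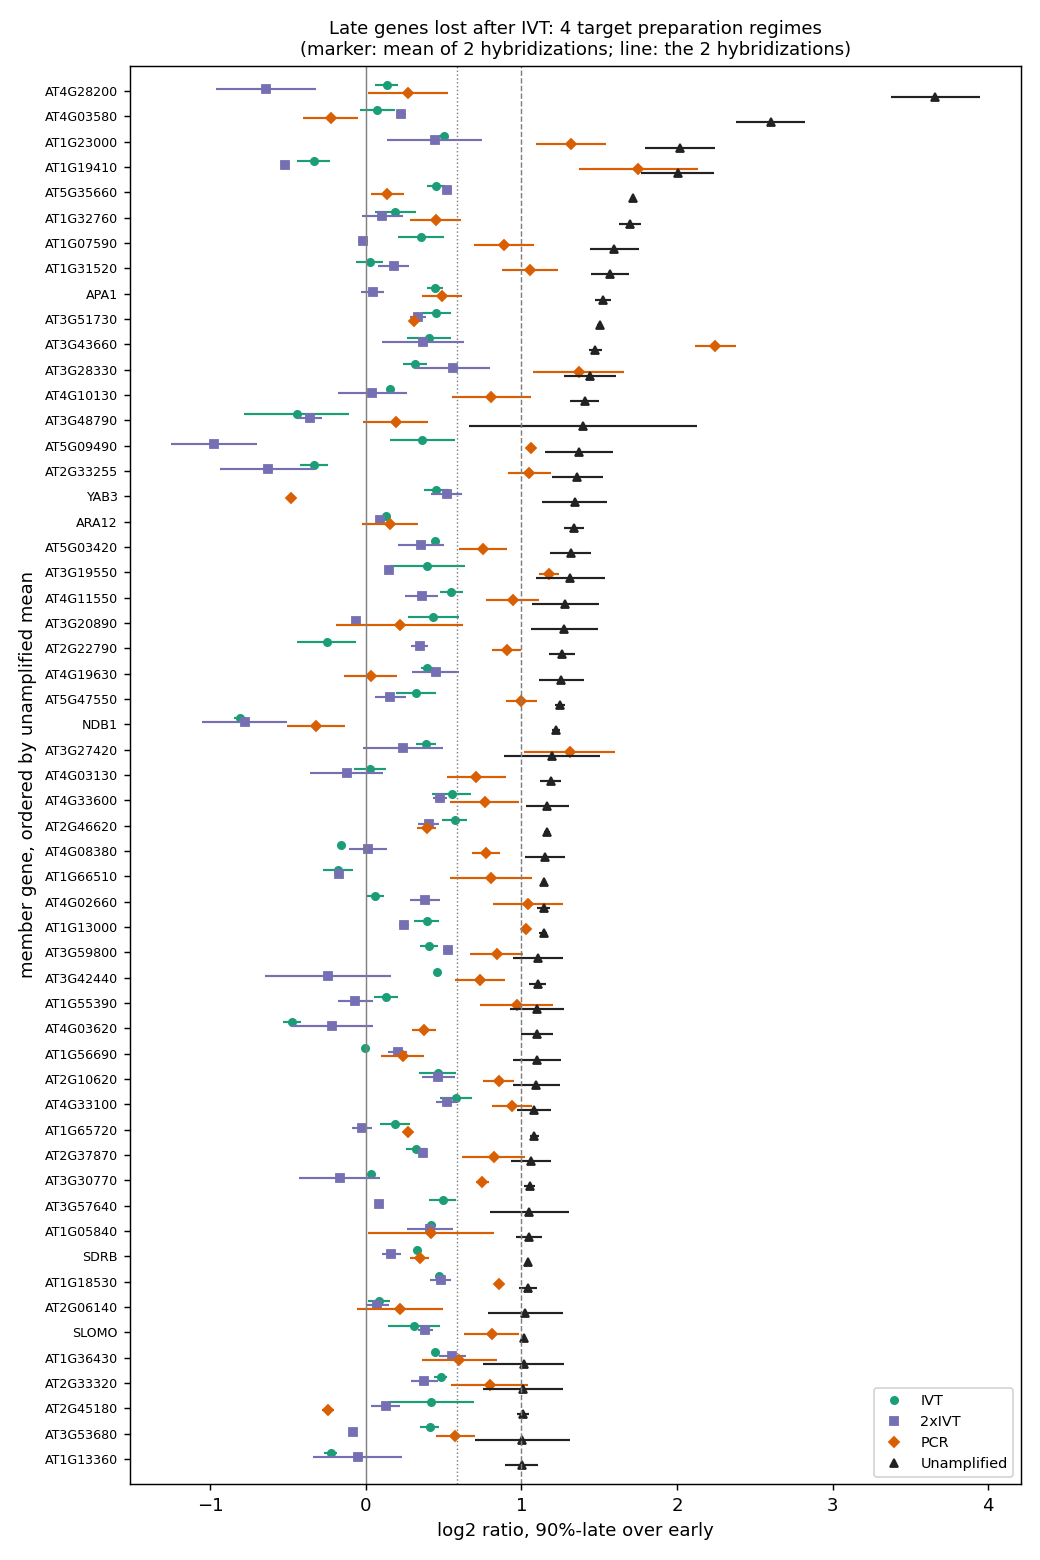
Log2 ratio of 90%-late over early (horizontal axis) for each of the 55 members, ordered by unamplified mean, in IVT, 2xIVT, PCR and unamplified targets. Markers are means and lines join the 2 hybridizations, the dotted and dashed lines mark 1.5-fold and 2-fold, and most PCR markers lie between the IVT markers and the unamplified ones (PCR median 0.76).

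The thresholds cut through a continuous range. The members nearest the unamplified threshold were AT1G13360 (1.001), AT3G53680 (1.006) and AT2G45180 (1.008), and the nearest probes outside it were VPS46.2 (0.99), GRXC2 (0.98) and COR15A (0.97). At the IVT threshold the nearest members were AT4G33100 (0.58), AT2G46620 (0.57) and AT4G33600 (0.55), with AT5G54940 (0.59), AT4G14990 (0.64) and AT1G12080 (0.65) just outside. At the 2xIVT threshold they were AT3G28330 (0.56), AT1G36430 (0.56) and AT3G59800 (0.53), with AT4G23520 (0.59), AT3G48770 (0.59) and AT4G13200 (0.60) outside.

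About as many members met the rule on every hybridization as did not. Of the 55, 37 had an unamplified ratio of 1 or more on both hybridizations, 42 were under 1.5-fold on all 4 IVT and 2xIVT hybridizations, and 27 met the rule on each of the 6. When the rule was applied to replicate 1 of each regime it chose 73 probes, and the 70 with values on replicate 2 had medians there of 0.33 in IVT, 0.25 in 2xIVT and 1.10 in unamplified targets. Applied to replicate 2 it chose 45, and the 42 with values on replicate 1 had medians there of 0.32, 0.20 and 1.18. The 27 that met the rule again were the same probes in both directions, and the same 27 that met it on each of the 6. They are thus a single count and not 2 separate checks. The hybridizations of the 2 replicates shared the same RNA and, in IVT and 2xIVT, the same 90%-late amplification. Both replicates had also entered the means that defined the 55 members.

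PCR targets showed a late ratio for most of these genes. Of the 53 members with both PCR values, 38 (71.7%) were called higher in 90%-late siliques by limma at an adjusted p under 0.05, against 15.1% of all 22916 probes tested. YAB3 was the 1 member called lower, against 16.5% of all probes, and 14 members were not called. The median PCR ratio was 0.76 over members and -0.01 over all probes. The PCR mean was 1.5-fold or more towards 90%-late for 32 members (60.4%, against 6.70% of all probes) and 2-fold or more for 11 (20.8%, against 2.44%). Both PCR values were above 0 for 44 members (83.0%, against 36.1%) and both below 0 for 4. Members were chosen as late in unamplified targets of the same RNA, so a share above that of all probes is also what late genes in general showed.

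Members were therefore set beside the other late genes. PCR called 38 of 53 members (71.7%) higher in 90%-late, 159 of 235 (67.7%) of the late probes between the classes and 234 of 421 (55.6%) of those kept after IVT. Median PCR ratios were 0.76, 0.74 and 0.48 in the same order, while the median unamplified ratio was lower in members (1.20 over those tested) than in the kept class (1.96). Among probes with an unamplified mean of 1 to 1.5, PCR called 31 of 43 members (72.1%, median PCR ratio 0.77), 92 of 151 in between (60.9%, median 0.48) and 42 of 130 kept (32.3%, median 0.25). Up to 2, the shares were 73.5%, 64.6% and 42.5%. With only the probes whose 4 nearest identifiers averaged under 0.3 in PCR, the share called over all unamplified levels was 61.1% of 36 members (median PCR ratio 0.47), 59.2% of 169 in between (0.44) and 54.6% of 372 kept (0.47), and from 1 to 1.5 unamplified it was 62.1% of 29, 50.9% of 110 and 30.0% of 120. Probe identifiers are those of the deposited table, and their part in the result was not tested. The classes were defined by IVT values and overlapped widely in PCR ratio, and the differences between them were not tested. The 40 late probes without a symbol that met the rule had 29 calls (72.5%) and a median of 0.62.

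**Figure D2:**
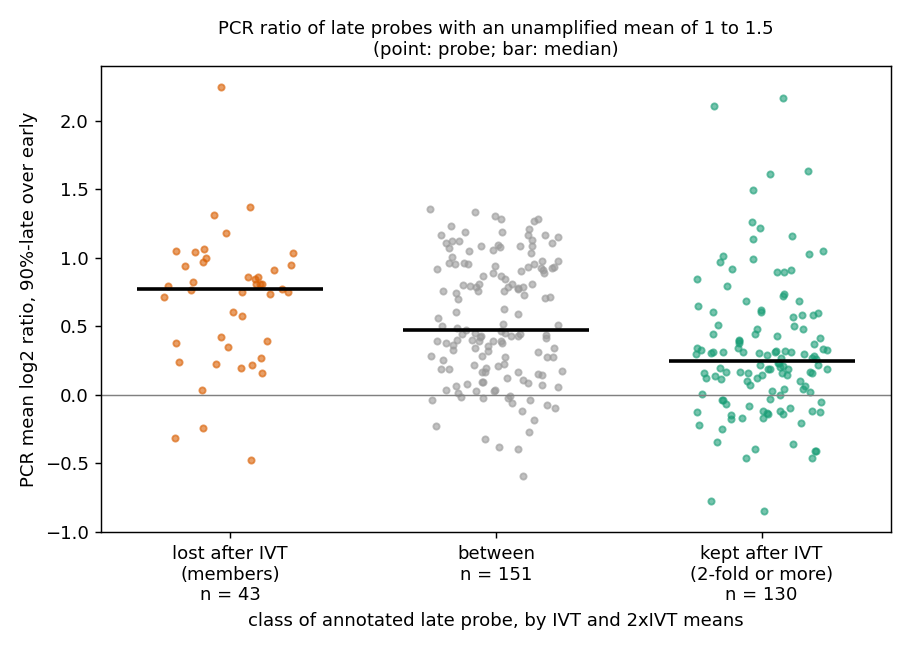
Mean PCR log2 ratio of 90%-late over early (vertical axis) for annotated late probes with an unamplified mean of 1 to 1.5, as members, the class between and the class kept after IVT. Points are probes and bars are medians, at 0.77 for 43 members, 0.48 for 151 in between and 0.25 for 130 kept, with wide overlap.

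The 2 PCR hybridizations did not contribute equally. The median over members was 0.57 on PCR replicate 1 and 0.89 on replicate 2, and 43 of the 53 (81.1%) were higher on replicate 2, against 61.3% in the class between, 45.6% in the kept class and 50.5% of all probes. Without PCR replicate 2, 27 members were called higher, and without PCR replicate 1, 35. The calls over all probes also fell then, to 1818 and 2109, against 3453 with both. The part of this difference in the members' PCR ratios was not tested. The median SD between the PCR hybridizations was 0.24 over members and 0.14 over all probes, and members ranked alike on both (r = 0.84, rho = 0.82, 53 probes).

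Within the members, the size of the PCR ratio followed that of the unamplified one weakly or not at all. The rule had cut the unamplified ratio at 1, and in 45 of the 55 members it was under 1.5, which limits any correlation. Across the 53 members Pearson's r between PCR and unamplified ratios was -0.04 and Spearman's rho 0.12. Without the 2 members of highest unamplified ratio they were 0.28 and 0.22. These are descriptions across probes that share all hybridizations. PCR stood at 2.25 for AT3G43660, with an unamplified ratio of 1.48, and at 0.27 for AT4G28200, with an unamplified ratio of 3.66.

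**Figure D3:**
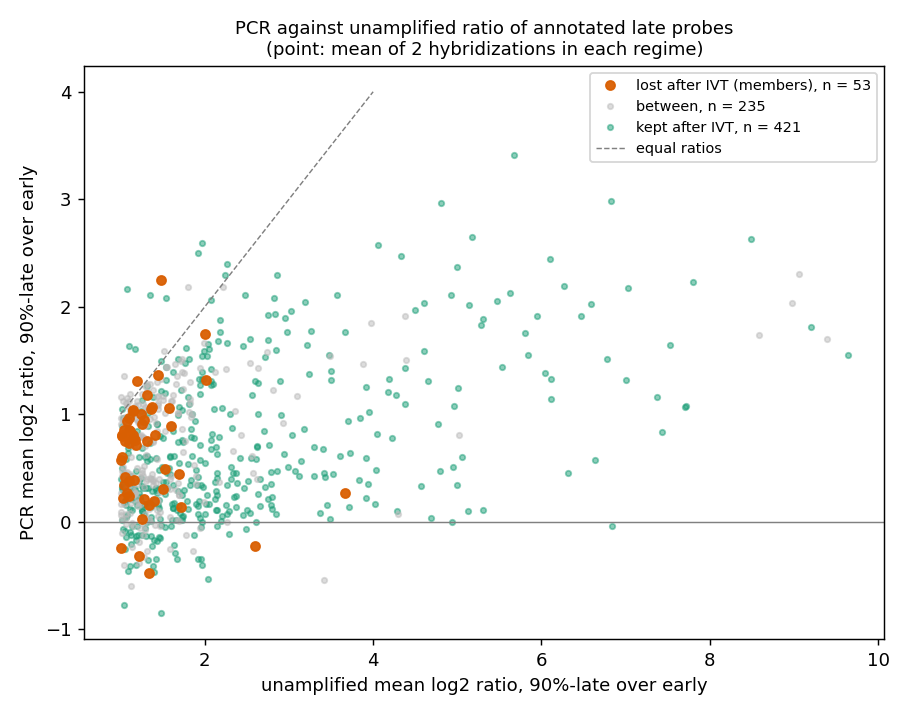
Mean PCR log2 ratio (vertical axis) against mean unamplified log2 ratio (horizontal axis), both 90%-late over early, for 53 members, 235 late probes in between and 421 kept after IVT. The dashed line marks equal ratios. Members cluster at unamplified ratios under 2 with PCR ratios from -0.48 to 2.25, and AT4G28200 (3.66 unamplified, 0.27 PCR) lies farthest right among them.

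The 4 members with the largest unamplified ratios divided into 2 that PCR also measured as late and 2 that it did not. AT4G28200, which encodes a protein of the U3 snoRNA-associated type involved in ribosome assembly, had 0.21 and 0.06 in IVT, -0.96 and -0.32 in 2xIVT, 0.01 and 0.53 in PCR, and 3.95 and 3.37 in unamplified targets. AT4G03580 had 0.19 and -0.04 in IVT, 0.20 and 0.26 in 2xIVT, -0.05 and -0.40 in PCR, and 2.82 and 2.38 unamplified. Only the 2 unamplified values were high for both genes, and their PCR means of 0.27 (SE 0.18, limma adjusted p = 0.285) and -0.23 (SE 0.14, adjusted p = 0.228) were not called. AT1G23000, with a heavy-metal-associated domain, had 0.53 and 0.47 in IVT, 0.14 and 0.75 in 2xIVT, 1.09 and 1.55 in PCR, and 2.24 and 1.79 unamplified. AT1G19410, an F-box protein with leucine-rich repeats, had -0.44 and -0.23 in IVT, -0.52 and -0.52 in 2xIVT, 1.37 and 2.13 in PCR, and 2.24 and 1.77 unamplified. In AT1G19410 the PCR and unamplified values overlapped while IVT and 2xIVT lay on the early side. PCR called both higher, with means of 1.32 (SE 0.17, limma adjusted p = 0.000238) for AT1G23000 and 1.75 (SE 0.17, adjusted p = 4.75e-05) for AT1G19410.

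Of the next 8 by unamplified ratio, PCR called 7 higher. The exception, AT5G35660, had PCR values of 0.03 and 0.25 against 1.73 and 1.70 unamplified (limma adjusted p = 0.346). The 7 were AT1G32760, of the glutaredoxin family (PCR mean 0.45), AT1G07590, a pentatricopeptide repeat protein (0.89), AT1G31520 (1.06), APA1, an aspartic protease of the vacuole (0.49), AT3G51730, a saposin B domain protein (0.31), AT3G43660, of the vacuolar iron transporter family (2.25), and AT3G28330, an F-box type protein (1.37). The call on AT3G51730 (limma adjusted p = 0.0458) was the least secure of them, and its adjusted p was 0.0625 with the replicate number as a block. AT1G07590 was the gene with a second annotated probe, which had a mean of 0.38 in IVT, 0.33 in 2xIVT and -0.26 unamplified, against 1.60 unamplified for the member probe. For this gene the late ratio was thus seen by 1 of 2 probes.

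AT3G43660 gave the highest PCR ratio of all members. Its values were 0.27 and 0.55 in IVT, 0.10 and 0.63 in 2xIVT, 2.38 and 2.11 in PCR, and 1.52 and 1.44 in unamplified targets. The PCR values lay above the unamplified ones with no overlap, and the PCR mean was 2.25 (SE 0.14, limma adjusted p = 2.67e-06). AT3G27420 was the other member with a PCR mean above the unamplified one, 1.31 against 1.20, and there the hybridizations overlapped (1.02 and 1.60 in PCR, 1.51 and 0.89 unamplified). AT3G19550 had PCR values of 1.12 and 1.24 and a mean of 1.18 (limma adjusted p = 0.000171), against 1.10 and 1.53 unamplified.

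YAB3, a YABBY transcription factor of abaxial organ identity that also acts in the pod valves, ran the opposite way in PCR. It had 0.54 and 0.37 in IVT, 0.42 and 0.62 in 2xIVT, -0.49 and -0.46 in PCR, and 1.13 and 1.55 unamplified. All 6 values of the other regimes were above 0 and both PCR values below it, with a PCR mean of -0.48 (SE 0.12, limma adjusted p = 0.0141). The call was lost without PCR replicate 1 (adjusted p = 0.107) or replicate 2 (0.0956). NDB1, an external NAD(P)H dehydrogenase of mitochondria, had -0.77 and -0.85 in IVT, -0.51 and -1.05 in 2xIVT, -0.51 and -0.13 in PCR, and 1.25 and 1.20 unamplified. Here every amplified hybridization was on the early side, and the PCR mean of -0.32 was not called (limma adjusted p = 0.108). AT2G45180, a small secreted protein of the lipid transfer and protease inhibitor superfamily, had -0.28 and -0.21 in PCR against 1.05 and 0.97 unamplified (adjusted p = 0.189). With AT4G03580, these were the 4 members below 0 on both PCR hybridizations.

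Members were grouped by the function of their products after they had been seen, so the groups carry no test. PCR called 71.7% of all tested members higher, against 15.1% of all probes. The groups hold 2 to 5 members each, and no difference of a group from the 71.7% was tested. RefSeq (assembly TAIR10.1) lists 51 as protein coding and 4 as pseudogenes, and 49 carry no symbol other than the locus. The named ones are APA1, ARA12, NDB1, SDRB, SLOMO and YAB3.

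Proteases and a protease inhibitor numbered 5, and PCR called 3 of them higher. AT5G47550, a phytocystatin that inhibits cysteine proteases, had 0.19 and 0.45 in IVT, 0.26 and 0.06 in 2xIVT, 1.10 and 0.90 in PCR, and 1.28 and 1.21 unamplified, with a PCR mean of 0.999 (SE 0.12, limma adjusted p = 0.000135). The aspartyl proteases APA1 (0.49) and AT3G30770 (0.75) were also called. The remaining aspartyl protease, AT1G05840, had PCR values of 0.02 and 0.82 and was not called (limma adjusted p = 0.0764). ARA12, a subtilase needed for the release of mucilage from the seed coat, had 0.14 and 0.12 in IVT, 0.07 and 0.11 in 2xIVT, 0.34 and -0.02 in PCR, and 1.28 and 1.40 unamplified. Its IVT and 2xIVT values lay below the unamplified pair, as in every member, and so did both PCR values. The PCR mean of 0.16 was not called (limma adjusted p = 0.323).

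All 3 F-box proteins, the subunits that choose substrates for ubiquitin ligases, were called higher by PCR. They were AT1G19410 (1.75), AT3G28330 (1.37, limma adjusted p = 0.000153) and SLOMO (0.81, adjusted p = 0.000812), the last of which acts in auxin homeostasis. For SLOMO the values were 0.48 and 0.14 in IVT, 0.43 and 0.33 in 2xIVT, 0.63 and 0.99 in PCR, and 1.01 and 1.03 unamplified. Over all members the share called was 71.7%, and over all probes 15.1%. The 4 probes nearest by identifier also averaged 1.5-fold or more towards 90%-late in unamplified targets for each of these genes (1.32 for AT1G19410, 0.66 for AT3G28330 and 1.32 for SLOMO).

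Metal and redox proteins numbered 5, of which PCR called 4. Beside AT3G43660, AT1G23000 and AT1G32760, these included SDRB, a peroxisomal short-chain dehydrogenase, with PCR values of 0.41 and 0.28 against 1.03 and 1.06 unamplified (limma adjusted p = 0.0264). NDB1 was the member of this group not called.

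Of 4 proteins of RNA, ribosomes and translation, PCR called 2. AT5G09490, a 40S ribosomal protein S15, had 0.15 and 0.58 in IVT, -1.25 and -0.70 in 2xIVT, 1.04 and 1.09 in PCR, and 1.15 and 1.59 unamplified. Its 2xIVT mean of -0.98 was the lowest of any member, while its PCR mean was 1.06 (SE 0.16, limma adjusted p = 0.000669). The DnaJ domain protein AT4G10130 was called at 0.81, and the RNA-binding AT3G20890 had PCR values that disagreed in sign, -0.19 and 0.62.

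The smaller groups showed the same mixture. Both C1 domain proteins, AT4G11550 (0.94) and AT1G55390 (0.97), were called higher by PCR, as was 1 of 2 pentatricopeptide repeat proteins (AT1G07590, but not AT1G56690 at 0.24). Of 2 lipid transfer-like proteins, AT2G37870 (0.82) was called and AT2G45180 (-0.24) was not. Of the 4 pseudogenes, 3 were called, with PCR ratios from 0.22 to 0.86 over the 4.

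The other members called higher included AT2G33255, a HAD-type hydrolase (1.05), AT1G66510 (0.81), AT4G02660, a BEACH domain protein (1.04), AT1G18530, an EF-hand calcium-binding protein (0.86), AT4G08380, an extensin-like cell wall protein (0.77), AT3G53680, a PHD finger protein (0.58), and AT2G46620, an AAA-type ATPase (0.39). AT1G13000 (1.03), AT2G22790 (0.91), AT4G33100 (0.94), AT3G59800 (0.84), AT2G33320 (0.80), AT4G33600 (0.76), AT5G03420 (0.75) and AT4G03130 (0.71) were called too. Not called were AT4G03620 (0.38), AT1G65720 (0.27), AT3G48790 (0.19) and AT4G19630 (0.03). AT3G57640 and AT1G13360 had a single PCR value each, 0.22 and -0.17, and no test. AT3G48790 also had the least repeatable unamplified pair, 2.13 and 0.66.

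Across 13 lists of silique and seed genes, 51 of the 169 listed loci were measured. These held 1 of 9 seed storage proteins and 13 of 24 late embryogenesis abundant proteins, so the counts do not describe whole families. Of the measured probes 24 were late, and 19 of these kept 2-fold or more in IVT and 2xIVT. The seed coat gene ARA12 was the 1 member. Members made up 7.32% of all late probes with values, so a count this low is near the overall share. Over all 751 late probes with values, 453 were kept, and the difference of the lists from this was not tested. Of the late embryogenesis abundant proteins, which protect the drying embryo, 10 were late, 9 were kept and 0 were members. The seed storage protein, vicilin-like cupin and oil body lists had 8 late probes with 7 kept. PCR called 21 of the 50 listed probes higher and 5 lower, against 15.1% and 16.5% of all probes. The lists held 24 late probes, and a raised share called higher is also what late genes in general showed.

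Members were spread over all 5 chromosomes. Chromosome 4 held 14 (25.5%, against 15.5% of annotated probes) and chromosome 5 held 5 (9.09%, against 22.7%), with 15 on chromosome 1, 8 on chromosome 2 and 13 on chromosome 3. These shares are not set beside those of other late probes, and no difference was tested. By locus number, AT4G03580 and AT4G03620 lie close together on chromosome 4, as do AT4G28200 and NDB1 (AT4G28220).

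Some members were accompanied by probes with nearby identifiers in the deposited table. The mean of the 4 nearest identifiers was 1.5-fold or more towards 90%-late in unamplified targets for 7 of 55 members (12.7%), against 21.0% of the late probes in between, 8.61% of those kept and 7.49% of annotated probes. Members also lay close to each other by identifier. AT1G31520 and AT1G66510 were 3 apart, AT1G18530 and AT1G55390 3 apart, and AT2G37870 and AT2G22790 2 apart. AT4G10130 and SLOMO stood 4 apart. PCR called each of these genes higher, and the part of identifier position in these calls was not tested. AT4G10130 and SLOMO sat in an unbroken run of 10 probes with unamplified means of 1.5-fold or more, of which 2 were members. Over the run, means ranged from 0.16 to 2.01 in IVT, 0.04 to 2.50 in 2xIVT (AT4G23390 had no 2xIVT mean), 0.33 to 1.33 in PCR and 0.65 to 1.68 unamplified. The named loci in this run are scattered along chromosome 4. Across all probes, ratios of consecutive identifiers correlated at r = 0.03 in IVT, 0.04 in 2xIVT, 0.12 in PCR and 0.04 in unamplified targets. PCR called higher all 7 members whose neighbours averaged 1.5-fold or more, and 31 of 46 (67.4%) without them. With only the members whose neighbours averaged under 0.3 unamplified, it called 24 of 37 (64.9%). In PCR itself, the mean of the 4 nearest identifiers was 0.3 or more for 17 of 55 members (30.9%), against 27.2% of the late probes in between, 11.5% of those kept and 10.7% of annotated probes. PCR called 16 of these 17 members higher (94.1%), and 22 of the 36 tested with neighbours under 0.3 (61.1%), whose median PCR ratio was 0.47. Among the other late probes with PCR neighbours of 0.3 or more, it called 59 of 66 in between (89.4%) and 31 of 48 kept (64.6%).

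**Figure D4:**
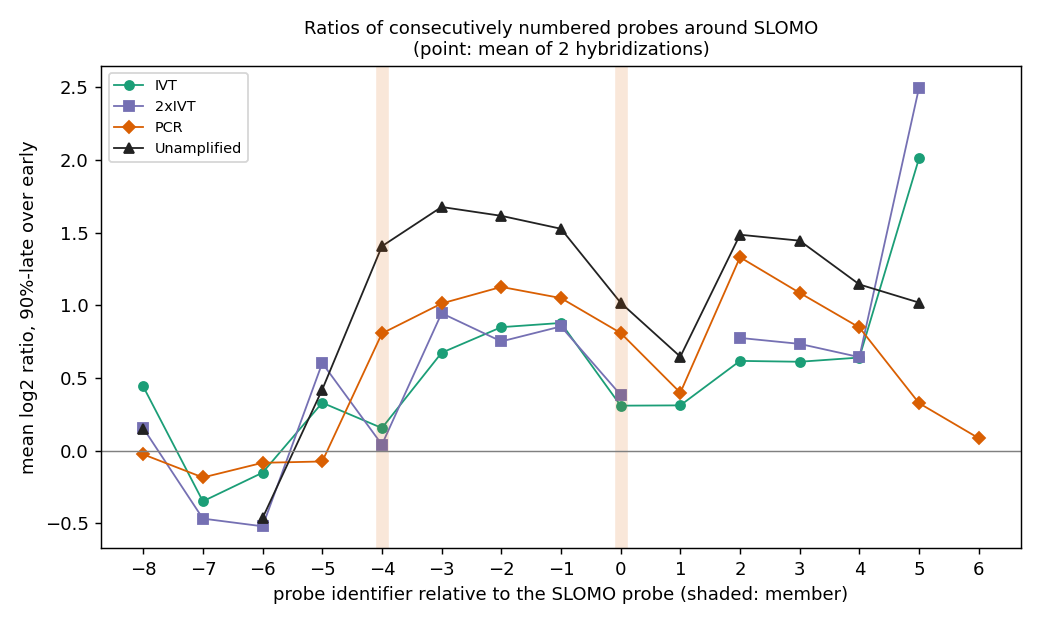
Mean log2 ratio of 90%-late over early (vertical axis) for consecutively numbered probes, by identifier relative to that of SLOMO (horizontal axis), in IVT, 2xIVT, PCR and unamplified targets. Shading marks the members AT4G10130 and SLOMO, which sit in a run of 10 probes with unamplified means from 0.65 to 1.68.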

How the data were processed

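The values deposited by the authors were log2 ratios, 1 for each probe on each hybridization. GenePix spot intensities had been normalized by the authors in 3 steps, to the global mean, to the local mean over the slide and to the local mean over intensity. The log2 scale and the direction, early (Cy5) over 90%-late (Cy3), were taken from the dyes, the methods and the longer tail towards late, and the sign was turned here. Sources used here do not state whether dim spots had been trimmed, or the weak channel filled in, before deposit. The brightness behind a ratio is unknown, and the small number of hybridizations limits the precision.

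Means were taken over both hybridizations of a regime. The PCR mean was tested against 0 with limma (lmFit and eBayes, no block, prior degrees of freedom 6.94) in a single fit of all 8 hybridizations, with regime means and a shared spread, and Benjamini-Hochberg adjustment over 22916 probes with both PCR values. The fit was tested on simulated data in which a probe had the same spread in every regime. That test could not show how unequal spreads affect the calls. Adjusted p under 0.05 was a call. The SEs and p-values rest on the shared spread, although the members' median SD was 0.24 in PCR and 0.11 in IVT. For AT1G19410 the SD of the PCR pair was 0.54, beside an SE of 0.17 from the fit. Gene names came from the platform annotation, of which 14485 of 14539 annotated probes matched a RefSeq locus (TAIR10.1).

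The members and lists were chosen with earlier results of these data known. The 31 genes named by rule were the 12 members of largest unamplified ratio, the 8 of highest and 8 of lowest PCR ratio, those in a list, up to 4 of each group of 3 or more, and those nearest the thresholds. Other members are named to account for all 55. Alternatives covered the samples fitted, centring, scaling, probes tested, prior, replicate block, thresholds and each hybridization left out. Fits ran in limma 3.58.1 under R 4.3.3, and other steps in pandas 2.3.3, numpy 2.4.6 and matplotlib 3.10.9 under Python 3.11.15.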

Additional observations from a re-analysis of the deposited data

Results flagged for a closer look

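These 13 members stood out because both PCR hybridizations lay on the opposite side of 0 from both hybridizations of another regime. Low IVT and 2xIVT ratios are part of how the members were chosen, and the differences between regimes were not tested. Above 0 in PCR and below 0 in both IVT and 2xIVT were AT1G19410 (PCR mean 1.75), AT2G33255 (1.05) and AT1G66510 (0.807). Above 0 in PCR and below 0 in IVT were AT2G22790 (0.907), AT4G08380 (0.77) and AT4G03620 (0.376), and above 0 in PCR and below 0 in 2xIVT were AT5G09490 (1.064), AT3G53680 (0.576) and AT4G28200 (0.27). Below 0 in PCR and above 0 in every other regime were YAB3 (PCR mean -0.478) and AT2G45180 (-0.243). AT4G03580 (-0.226) was below 0 in PCR and above 0 in 2xIVT and unamplified targets, and NDB1 (-0.32) was below 0 in PCR and above 0 in unamplified targets.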

How the results depend on the processing

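The number of members called higher by PCR was 36 to 41 under every alternative fit that kept both PCR hybridizations, including 37 with the replicate block, 38 with PCR fitted alone and 41 after scaling, and 27 to 39 with each hybridization left out in turn. The 1 lower call became 0 without either PCR replicate (0 to 1 over all left out). Over all probes, leaving out a hybridization gave 1818 to 3906 higher and 1922 to 4362 lower calls, the lowest without PCR replicate 2. Of the named members, 15 to 22 were called in either direction. The same replicate number did not pair the regimes (r of replicate differences -0.06 to 0.03 over 20638 probes), so the block is given for its count alone. Of the named calls the block lost that on AT3G51730. With PCR fitted alone, adjusted p-values of the named members followed the mean and not the spread of the pair. AT1G19410, with a pair SD of 0.54, had a limma adjusted p of 1.74e-27 there. The 38 calls of that fit thus do not test how well the PCR pair agreed. Signs differed between the PCR hybridizations for ARA12 (-0.022 without PCR replicate 1, 0.336 without replicate 2), AT4G19630 (0.201 and -0.14) and AT3G48790 (0.402 and -0.017), none of them called. Among 30 named members, 19 kept direction and call in all fits and 11 did not.

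The number of members moved with the rule. It was 10 with an unamplified mean of at least 1.5 (median PCR ratio 0.47), 20 with IVT and 2xIVT under 0.3 (0.45), 150 with both under 1, 27 with the rule met on each of the 6 hybridizations and 95 over all probes. Leaving out a hybridization gave 48 to 63 members and a median PCR ratio of 0.56 to 0.89. Chosen after seeing the data, PCR called 24 of 37 members whose neighbouring identifiers averaged under 0.3 in unamplified targets, 22 of 36 with neighbours under 0.3 in PCR (61.1%), and 21 of 27 that met the rule on each of the 6 (77.8%).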
